A study of Mus musculus with 4 samples.

Results

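The matricellular genes described here are 10 of the 32285 genes counted cell by cell in the stromal vascular cells of mouse brown adipose tissue (BAT), the cells left when adipocytes float off a digest. They were taken by symbol as Thbs1, Thbs2, Sparc, Sparcl1, Postn, Tnc, Fn1, Cilp, Ccn1 and Ccn2. All 10 were found and all had counts. The study set 4 libraries side by side, and each is the only one of its group: WT, aged 10 weeks; db/db 8w and db/db 16w (below, 8-week db/db and 16-week db/db), from mice with the Lepr db mutation in the leptin receptor, aged 8 and 16 weeks; and HFD, on a high-fat diet, labelled 10 weeks. All 4 are labelled C57BL6/J, and the methods name the db/db stock as B6.BKS(D)-Leprdb/J. By the study's methods the diet itself ran for 10 weeks from 10 weeks of age, so the label may give the diet and not the age. Each library pooled these cells from several mice, so age differs between WT and every db/db library, and no spread between mice was measured. No test was therefore made, and all intervals given here are of counting error alone.

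Matricellular proteins are secreted into the extracellular matrix, where they tune how cells adhere to it and how growth factors reach them, and most of them are not load-bearing fibres. They are best known from wounds, fibrosis and tissue remodelling, where fibroblasts are a main source. Thrombospondins (Thbs1, Thbs2) bind the receptors CD36 and CD47, and thrombospondin 1 can activate latent TGF-β. SPARC and its relative hevin (Sparcl1) bind collagen, and SPARC restrains adipocyte differentiation. Periostin (Postn) and tenascin C (Tnc) bind integrins and mark remodelling matrix. Fibronectin (Fn1) is a matrix glycoprotein with a structural role, on whose fibrils other matrix proteins assemble. CILP antagonises TGF-β signalling, and CCN1 and CCN2 bind integrins and are textbook targets of the YAP/TEAD mechanosensing pathway.

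All 10 genes are protein coding. On GRCm38 (mm10, GENCODE vM21) they lie at chr2:118111876-118127133 (+, Thbs1), chr17:14665500-14694235 (-, Thbs2), chr11:55394500-55423183 (-, Sparc), chr5:104079111-104113733 (-, Sparcl1), chr3:54361109-54391037 (+, Postn), chr4:63959785-64047015 (-, Tnc), chr1:71585520-71653200 (-, Fn1), chr9:65265180-65280605 (+, Cilp), chr3:145646976-145649981 (-, Ccn1) and chr10:24595442-24598683 (+, Ccn2). No counted gene overlaps any of them on its own strand. A counted gene lies on the other strand of Thbs1 (Gm29233), Sparcl1 (Gm26703), Tnc (8030451A03Rik), Fn1 (Apol7d) and Ccn2 (Gm15270), and whether the counting used strand is not given in the sources used here.

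Upstream sequence from RefSeq (GRCm38.p6) was matched by symbol for 6 members in 8 windows (Thbs2, Sparc, Postn, Tnc, Cilp and Ccn1). Thbs1, Sparcl1, Fn1 and Ccn2 have no entry. Below are the 250 bases before the start site of Postn (its window nearest to the annotated gene, chr3:54360857-54361106, + strand) and of Tnc (window at the annotated gene, chr4:64047016-64047265, - strand), which were higher in stromal cells of every obese library, and of Ccn1 (chr3:145649986-145650235, - strand), a YAP/TEAD target. They are written 5′ to 3′ on the strand of the gene, and capitals mark matches to the motifs searched.
Postn: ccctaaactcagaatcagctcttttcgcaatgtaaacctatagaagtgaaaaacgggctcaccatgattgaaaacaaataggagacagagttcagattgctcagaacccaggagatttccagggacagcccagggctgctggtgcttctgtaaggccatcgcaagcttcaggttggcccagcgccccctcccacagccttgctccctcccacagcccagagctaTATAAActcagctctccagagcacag
Tnc: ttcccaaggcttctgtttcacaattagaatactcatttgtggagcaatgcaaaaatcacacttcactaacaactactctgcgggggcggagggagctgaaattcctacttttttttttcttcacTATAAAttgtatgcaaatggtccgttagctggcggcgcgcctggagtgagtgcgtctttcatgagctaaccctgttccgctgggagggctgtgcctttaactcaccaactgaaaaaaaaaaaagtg
Ccn1: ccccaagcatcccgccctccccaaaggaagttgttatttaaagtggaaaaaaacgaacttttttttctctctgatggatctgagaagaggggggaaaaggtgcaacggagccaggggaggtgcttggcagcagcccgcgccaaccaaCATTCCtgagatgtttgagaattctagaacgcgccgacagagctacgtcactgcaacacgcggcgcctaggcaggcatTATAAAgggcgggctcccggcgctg
Each motif was searched on both strands, and the printed matches do not overlap. The TEAD motif was searched as GGAATG, and in 1 of the 8 member windows it was found, upstream of Ccn1, where it reads CATTCC, 103 to 98 bases before the start. It occurred in 12.6% of all 32851 windows of the same length. The TATA motif, searched as TATAAA, was found upstream of Ccn1, of Thbs2, in both Tnc windows and in 1 of 2 Postn windows, against 12.4% of all windows. The SMAD motif, searched as CAGACA, was found upstream of Thbs2 and Sparc and in 1 of 2 Tnc windows, against 17.1%. No member window held the AP-1 motif, searched as TGANTCA and present in 6.75% of all windows, or the CArG box, present in 1.47%. These are matches of letters, and no binding was measured.

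After the study's quality limits (more than 250 and fewer than 6000 genes, more than 500 and fewer than 30000 UMIs, mitochondrial share under 15%), 28887 of 50581 barcodes remained, 5462 to 11648 per library. A UMI is a tag that counts each captured molecule once. Median depth was 2733 to 6219 UMIs per cell. HFD kept 31.3% of its barcodes and had the highest median mitochondrial share, 10.5%, and the library labelled db/db 16w had the lowest, 0.799%. That library also held Xist at 207 CPM, against at most 0.688 CPM elsewhere, and summed Y-linked genes at 17.7 CPM, against 164 to 188 CPM, although the methods name only male mice, so sex and group cannot be told apart in it. Pairs of libraries shared 7 to 25 cell barcodes, at most 0.429% of the smaller library. Cells were assigned to a lineage by raw UMIs of 5 marker lists that hold no member. The stromal gate, on Pdgfra, Dcn, Lum, Dpt, Pcolce and Serpinf1, held 4256 cells in WT, 5409 in 8-week db/db, 1120 in 16-week db/db and 1533 in HFD. Since the gate used these markers, the fibrillar collagen genes Col1a1, Col1a2 and Col3a1, which it did not use, were taken as a check. They summed to between 26623 and 43793 CPM in stromal-gated cells and to between 179 and 1035 CPM in myeloid-gated cells.

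In WT, stromal-gated cells held between 90.9% (Tnc) and 99.3% (Cilp) of all UMIs of 9 members, and the exception was Thbs1, with 30.5% in stromal-gated and 67.0% in myeloid-gated cells. In the obese libraries 19.2% to 46.4% of cells passed the stromal gate, against 71.6% in WT. In all 3 of them, 8 members had a lower stromal share of their UMIs than in WT. Tnc had a lower one in 8-week db/db and HFD and 91.4% in 16-week db/db, and Thbs1 had a higher one, between 47.2% and 51.8%. Fn1 had 41.6% of its UMIs in stromal-gated and 54.4% in myeloid-gated cells of 16-week db/db, and Ccn1 had 29.6% in stromal-gated and 40.1% in endothelial-gated cells of HFD. Levels were therefore compared inside a lineage. The level of a gene is its UMIs summed over the gated cells as counts per 1000000 of all their UMIs (CPM), a share of the cells' RNA and not a number of molecules per cell.

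**Figure D1:**
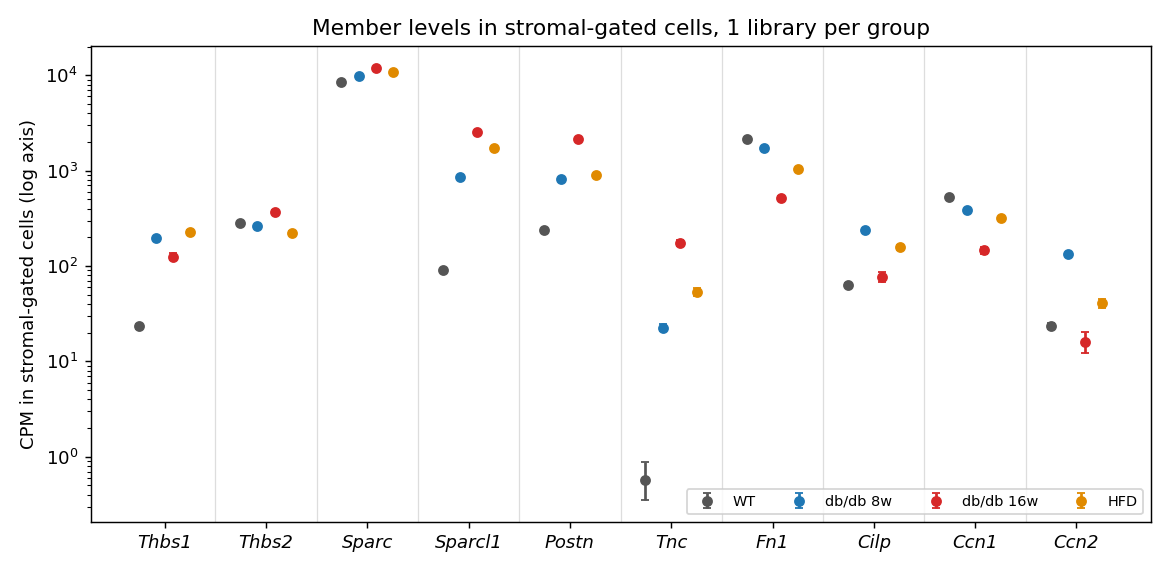
Level of each member in stromal-gated cells of the 4 libraries, in CPM on a log axis, with exact Poisson 95% intervals that cover counting error only and are often smaller than the point. Sparcl1, Postn, Tnc and Thbs1 lie lowest in WT, Fn1 and Ccn1 lie highest in WT, and Sparc spans 8531 to 11962 CPM.

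In stromal cells, Thbs1, Sparcl1, Postn and Tnc were at least 2-fold higher than in WT in all 3 obese libraries, Cilp in 8-week db/db and HFD, and Ccn2 in 8-week db/db. Fn1 was at least 2-fold lower in 16-week db/db and HFD, and Ccn1 in 16-week db/db. In 16-week db/db the Fn1 log2 ratio was -2.05 over all stromal cells and -0.69 in their Col15a1 subset. The Fn1 ratio in HFD lies at the 2-fold line (log2 ratio -1.02), fell short of 2-fold under 5 of 9 other settings for cells and scaling, down to -0.57, and was -0.21 in the Col15a1 subset and 0.62 in the Pi16 subset of stromal cells described below. In 8-week db/db, 6 of 10 members were at least 2-fold higher and 0 lower, where 3.6% and 2.85% of all 6273 genes compared were. In 16-week db/db, 4 were higher and 2 lower, where 12.8% and 14.7% of 6565 genes were, so at this age the count of lower members lies close to the background. In HFD, 5 were higher and 1 lower, where 9.4% and 7.77% of 6605 genes were. The median log2 ratio of the members was 1.83, 0.44 and 1.05 in 8-week db/db, 16-week db/db and HFD, beside 0.03, 0.02 and 0.09 over all genes compared. A gene was compared where it reached 20 CPM in either library, and counted where the ratio was at least 2-fold and its exact conditional binomial 95% interval left out no change. Tnc reached 20 CPM only in the obese library of each pair. The 3 comparisons share the WT library.

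**Figure D2:**
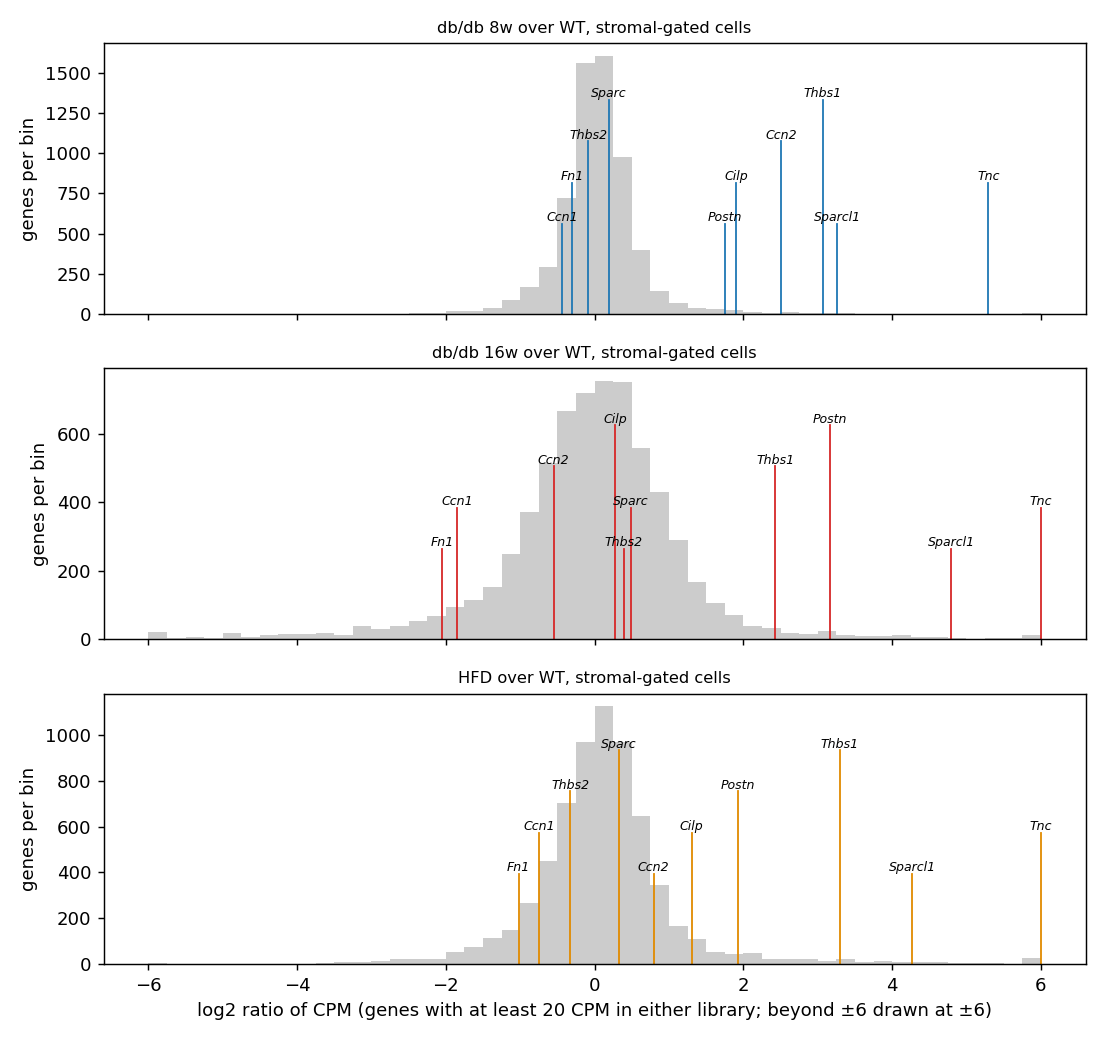
Histograms of the log2 ratio to WT in stromal-gated cells over all genes with at least 20 CPM in either library, 1 panel per obese library, with the 10 members marked by lines whose heights carry no value. Tnc, Sparcl1 and Thbs1 lie in the upper tail of each panel, and Sparc and Thbs2 lie near the middle of each.

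Tenascin C, a hexameric glycoprotein laid down in healing and remodelling tissue, had the widest range. Its stromal level was 0.576 CPM in WT (20 UMIs in 4256 cells), 22.6 CPM in 8-week db/db, 173 CPM in 16-week db/db and 53.9 CPM in HFD. Relative to WT, the log2 ratio came to 5.29 in 8-week db/db (interval 4.65 to 6.02), 8.23 in 16-week db/db (7.59 to 8.95) and 6.55 in HFD (5.90 to 7.27). The level stood on few cells: with each cell thinned to 1000 UMIs, 0.0479% of WT stromal cells held a Tnc UMI, against 1.08%, 5.08% and 2.42% in 8-week db/db, 16-week db/db and HFD (0.141%, 3.51%, 12.3% and 7.24% before thinning). Thinning left out 84, 615, 97 and 1 stromal cells with under 1000 UMIs in WT, 8-week db/db, 16-week db/db and HFD. In myeloid-gated cells, thinned in the same way, the share was 0 of 1353 cells in WT (0.222% at a limit of 3 cells), and between 0.0369% and 0.225% in the obese libraries. Between the db/db libraries, Tnc was 7.66-fold higher at 16 than at 8 weeks.

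Periostin, an integrin ligand that takes part in collagen cross-linking, was at 240 CPM in WT stromal cells, 810 in 8-week db/db, 2143 in 16-week db/db and 910 in HFD. The log2 ratios to WT were 1.76 (1.72 to 1.79), 3.16 (3.12 to 3.20) and 1.92 (1.88 to 1.97). The share of thinned stromal cells with a Postn UMI was 16.5% in WT, 36.3% in 8-week db/db, 66.1% in 16-week db/db and 36.2% in HFD (46.0%, 55.7%, 76.2% and 62.5% before thinning). In myeloid-gated cells it was 1.26%, 2.64%, 0.664% and 3.11%. The median depth of stromal-gated cells was 7031.5, 3962, 2811.5 and 5064 UMIs in WT, 8-week db/db, 16-week db/db and HFD, and that of myeloid-gated cells 5455.5, 4088, 5212 and 5691. Postn was thus highest in the library whose stromal cells were shallowest. In 16-week db/db the 50 mural-gated cells, pericytes and smooth muscle cells of the vessel wall, held Postn at 5328 CPM. Mural markers summed to 119 CPM in stromal-gated and 10582 CPM in mural-gated cells of that library.

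Thrombospondin 1 was at 23.2 CPM in WT stromal cells, 195 in 8-week db/db, 125 in 16-week db/db and 229 in HFD. The log2 ratios to WT were 3.07 (2.96 to 3.17), 2.43 (2.26 to 2.59) and 3.30 (3.18 to 3.42). WT stood apart from the obese libraries, among which the levels differed by less than 2-fold. A Thbs1 UMI was seen in 1.41% of thinned WT stromal cells and in 9.66%, 9.29% and 16.7% of those of 8-week db/db, 16-week db/db and HFD (4.46%, 19.1%, 20% and 40.7% before thinning). Thrombospondin 2, which binds the same receptors and restrains vessel growth, did not share this pattern: it was at 280, 265, 367 and 223 CPM in WT, 8-week db/db, 16-week db/db and HFD, and its log2 ratios to WT were -0.08 (-0.13 to -0.04), 0.39 (0.31 to 0.47) and -0.33 (-0.40 to -0.26).

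Of the SPARC family, Sparcl1 was at 90.6 CPM in WT stromal cells, 869 in 8-week db/db, 2519 in 16-week db/db and 1749 in HFD. Its log2 ratios to WT were 3.26 (3.21 to 3.32), 4.80 (4.74 to 4.85) and 4.27 (4.22 to 4.33). A Sparcl1 UMI was held by 6.09% of thinned WT stromal cells and by 39.6%, 84.0% and 71.9% of those of 8-week db/db, 16-week db/db and HFD, against 0.443%, 3.71%, 1.36% and 6.41% of myeloid-gated cells. Before thinning the stromal shares were 15.8%, 55.7%, 93.7% and 88.3%. Endothelial cells also hold Sparcl1, at 1063 CPM in 16-week db/db and 1030 CPM in HFD. Both values lie below the stromal level of the same library, and the endothelial markers summed to 61.9 and 246 CPM in stromal-gated cells of those libraries, against 6496 and 5702 CPM in endothelial-gated cells. Sparc was at 8531, 9746, 11962 and 10726 CPM in WT, 8-week db/db, 16-week db/db and HFD, and its log2 ratios to WT stayed between 0.19 and 0.49. A Sparc UMI was held by 93.2% to 99.3% of thinned stromal cells (98.2% or more before thinning).

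Over all stromal cells, fibronectin ran the other way. It was at 2140 CPM in WT stromal cells, 1734 in 8-week db/db, 517 in 16-week db/db and 1053 in HFD. The log2 ratios to WT were -0.30 (-0.32 to -0.29), -2.05 (-2.11 to -1.99) and -1.02 (-1.06 to -0.99). Within the Col15a1 subset described below, the Fn1 ratios were -0.26, -0.69 and -0.21 in the same order. Within the Pi16 subset they were 0.58 in 8-week db/db and 0.62 in HFD. A Fn1 UMI was held by 73.9%, 53.5%, 26.4% and 37.7% of thinned stromal cells in WT, 8-week db/db, 16-week db/db and HFD (91.5%, 69.3%, 44.2% and 59.8% before thinning).

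Cilp and Ccn2 were highest in 8-week db/db. Cilp was at 63.6 CPM in WT, 238 in 8-week db/db, 76.9 in 16-week db/db and 157 in HFD, with log2 ratios to WT of 1.91 (1.84 to 1.98), 0.28 (0.10 to 0.45) and 1.30 (1.20 to 1.40). Ccn2, also known as CTGF, was at 23.4, 133, 16.0 and 40.6 CPM in the same order, with ratios of 2.50 (2.39 to 2.62), -0.55 (-0.93 to -0.19) and 0.79 (0.61 to 0.98). Between the db/db libraries, Cilp was 3.10-fold and Ccn2 8.31-fold lower at 16 than at 8 weeks. Within the Col15a1 subset described below, the Cilp log2 ratios to WT were 0.08, -1.55 and -0.33 in 8-week db/db, 16-week db/db and HFD. In the Pi16 subset of 8-week db/db the Cilp ratio was 3.65. The 16-week db/db value of Ccn2 rests on 66 UMIs. Ccn1, also known as CYR61, was at 528 CPM in WT, 389 in 8-week db/db, 146 in 16-week db/db and 316 in HFD, with ratios of -0.44 (-0.47 to -0.40), -1.85 (-1.97 to -1.73) and -0.74 (-0.80 to -0.68).

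Set directly against 8-week db/db, the library labelled db/db 16w had 3 members at least 2-fold higher (Tnc, Sparcl1, Postn), where 5.47% of 6400 genes were, and 4 at least 2-fold lower (Ccn2, Fn1, Cilp, Ccn1), where 9.66% were. Thbs1, Thbs2 and Sparc differed by less than 2-fold. The same 3 collagen genes used below as tracers of stromal RNA, Col1a1, Col1a2 and Col3a1, summed to 26623, 37074, 43793 and 37525 CPM in stromal cells of WT, 8-week db/db, 16-week db/db and HFD.

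Stromal cells of adipose tissue hold Pi16- and Dpp4-positive progenitors and Col15a1-positive committed preadipocytes, and the mix differed between libraries. Of the stromal-gated cells, 58.2% in WT, 27.4% in 8-week db/db, 2.5% in 16-week db/db and 10.4% in HFD fell in the Pi16 subset (2476, 1482, 28 and 160 cells), gated on Pi16, Dpp4, Cd55 and Sema3c. The Col15a1 subset, gated on Col15a1, Col4a1 and Col4a2, held 13.5%, 49.2%, 91.5% and 82.6% (573, 2662, 1025 and 1267 cells). In WT, Fn1 was at 2619 CPM in the Pi16 subset and 702 CPM in the Col15a1 subset. Sparcl1 was at 4.58 CPM in the Pi16 and 471 CPM in the Col15a1 subset of WT. Cilp showed 3.84 and 211 CPM, and Thbs1 4.53 and 60.5 CPM. These members thus differed between the subsets within WT itself, and the mix of cells enters their levels over all stromal cells.

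**Figure D3:**
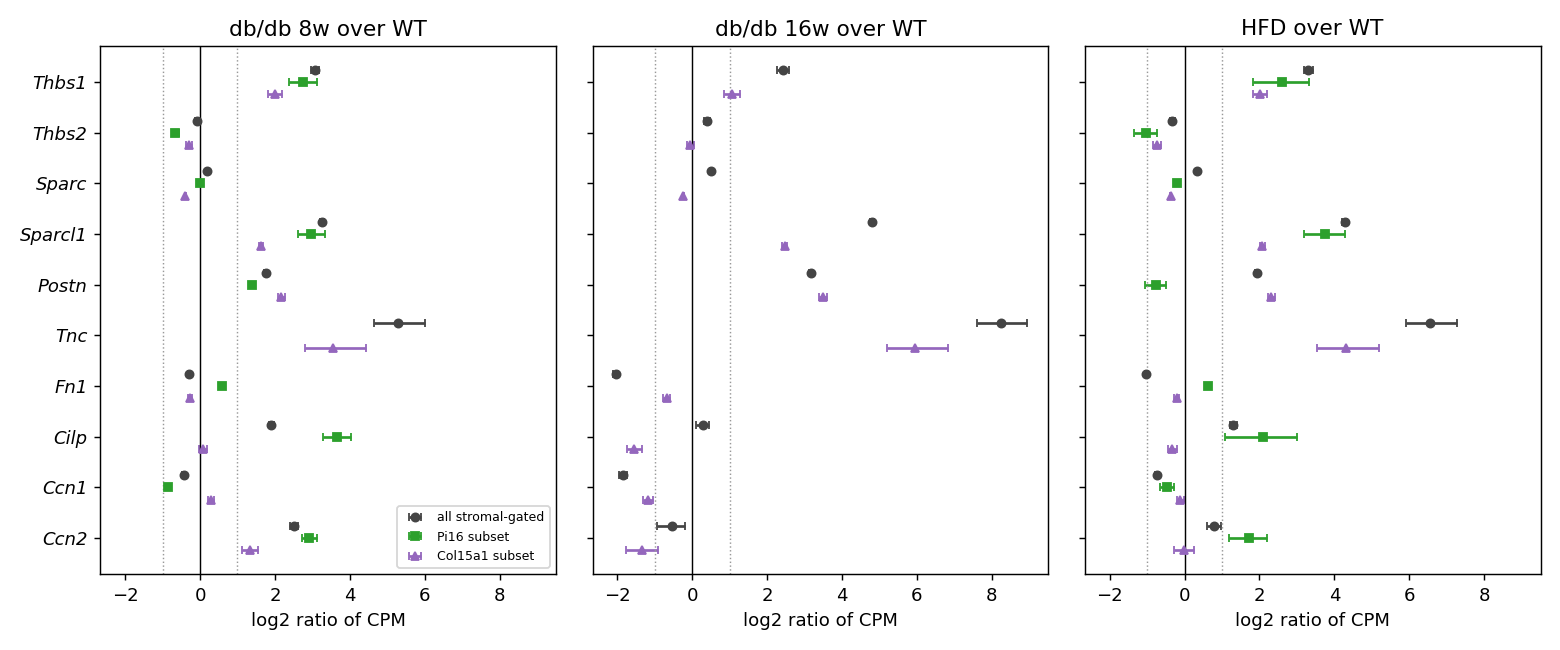
Log2 ratio of CPM to WT for each member in all stromal-gated cells, in the Pi16 subset and in the Col15a1 subset, 1 panel per obese library, with exact conditional binomial 95% intervals of counting error; dotted lines mark 2-fold, the Pi16 subset of 16-week db/db (28 cells) is left out, and so are points with under 4 UMIs in either library. Sparcl1, Postn, Tnc and Thbs1 lie to the right of the 2-fold line in the Col15a1 subset of all 3 libraries, and Fn1 lies on opposite sides of 0 in all stromal cells and in the Pi16 subset.

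Within the Col15a1 subset, 4 members were at least 2-fold higher than in WT in all 3 obese libraries. Postn was at 194 CPM in WT and at 874, 2170 and 965 CPM in 8-week db/db, 16-week db/db and HFD, with log2 ratios of 2.18 (2.08 to 2.27), 3.49 (3.39 to 3.59) and 2.32 (2.22 to 2.42). Sparcl1 was at 471, 1456, 2611 and 1982 CPM, with ratios of 1.63, 2.47 and 2.07, smaller than over all stromal cells. Tnc was at 2.93 CPM in WT (14 UMIs) and at 34.4, 182 and 58.0 CPM, and so reached 20 CPM only in the obese libraries. Thbs1 was at 60.5, 242, 126 and 245 CPM, and its 16-week db/db ratio of 1.06 (0.85 to 1.28) lies at the 2-fold line. In all, 5, 4 and 4 of the 10 members were at least 2-fold higher in 8-week db/db, 16-week db/db and HFD, where 3.94%, 15.1% and 10.7% of genes were. The numbers lower were 0, 3 and 0, where 2.23%, 10.8% and 5.11% of genes were.

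For the other members the ratio within this subset differed from that over all stromal cells in different ways. Cilp was at 211 CPM in the Col15a1 subset of WT, 223 in 8-week db/db, 72.1 in 16-week db/db and 168 in HFD, with log2 ratios to WT of 0.08 (-0.02 to 0.19), -1.55 (-1.74 to -1.36) and -0.33 (-0.45 to -0.20), so within this subset it was at least 2-fold higher in no obese library. Ccn2 was at 41.0, 103, 16.2 and 40.6 CPM, 2.51-fold higher than WT in 8-week db/db and 2.54-fold lower in 16-week db/db. Ccn1, at 339, 419, 150 and 312 CPM, was 2.27-fold lower in 16-week db/db. Sparc was lower than in WT in all 3 libraries, at 14565 CPM in WT and 11125, 12288 and 11254 CPM in the others, each by less than 2-fold. Fn1 was at 702, 585, 436 and 605 CPM, less than 2-fold lower in each.

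Within the Pi16 subset, Fn1 was higher than WT and not lower: 2619 CPM in WT, 3909 in 8-week db/db and 4028 in HFD, with log2 ratios of 0.58 (0.56 to 0.60) and 0.62 (0.57 to 0.67). The 28 Pi16 cells of 16-week db/db held 3935 CPM (3490 to 4422). Cilp was at 3.84 CPM in WT and 48.3 CPM in 8-week db/db, 12.6-fold higher. Ccn2 was at 15.5, 117 and 50.8 CPM in WT, 8-week db/db and HFD. Postn was at 267 CPM in WT, 700 in 8-week db/db and 156 in HFD, so it was higher in the Pi16 subset of 8-week db/db and lower in that of HFD. Tnc had 0 UMIs in the Pi16 subset of WT, of 16-week db/db and of HFD, and 9 UMIs in that of 8-week db/db. In 8-week db/db, 5 of 9 members compared were at least 2-fold higher, where 2.16% of 6328 genes were, and 0 lower, where 2.13% were. The 5 were Thbs1 (6.68-fold), Sparcl1 (7.81-fold), Postn, Cilp and Ccn2. Of these, only Postn reached 20 CPM in the Pi16 subset of WT. In HFD, 3 of 8 compared were higher, where 6.66% of genes were, and 1 lower (Thbs2), where 6.06% were. The 3 were Thbs1 (6.06-fold, on 20 UMIs), Sparcl1 (13.5-fold) and Ccn2, and none of these reached 20 CPM in the Pi16 subset of WT.

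Outside the stroma, Fn1 and Thbs1 stood furthest above the stromal tracers in myeloid cells. RNA set free from broken cells, or doublets of a stromal and a myeloid cell, would carry stromal genes into myeloid-gated cells in about 1 proportion, which Col1a1, Col1a2 and Col3a1, held out of the gates, put at 2.63% to 3.01% of the stromal level in WT, 2.67% to 3.08% in 8-week db/db, 0.389% to 0.441% in 16-week db/db and 2.35% to 3.15% in HFD. Fn1 stood at 15.3% (14.8 to 15.9), 40.8% (40.1 to 41.6), 27.5% (26.0 to 29.1) and 46.7% (45.3 to 48.2) of its stromal level. Thbs1 stood at 837% (770 to 911), 114% (109 to 118), 15.8% (13.8 to 18) and 23.9% (22.0 to 26.0). Ccn1 was also above the tracers, at 10.8%, 8.21%, 2.82% and 11%. In the PVM-like cells described below, Ccn1 stood at 13.9%, 17.7%, 22.1% and 21.2% of its stromal level, the last on 8 UMIs. In LAM-like cells it stood at 1.84%, 3.90%, 1.89% and 11.1%, the first on 5 UMIs. Thbs2, Sparc, Sparcl1, Postn and Cilp stood at 0.334% to 4.84%, and each was lowest in 16-week db/db, as the tracers were. They did not all lie inside the tracer range. In HFD, Sparc (3.71%), Sparcl1 (4.17%) and Postn (4.84%) lay above it, Cilp (1.48%) below it and Thbs2 (2.85%) inside it. Ccn2 stood at 2.80% in WT (6 UMIs) and 3.32% in 8-week db/db (100 UMIs). In 16-week db/db it stood at 3.19% (1.46 to 6.23) on 10 UMIs and in HFD at 5.38% (3.62 to 7.75), above the tracers of both. Tnc stood at 12.3% (9.77 to 15.3) in HFD, on 97 UMIs. The tracers do not follow endothelial RNA, and endothelial-gated cells also held Ccn1 and Tnc, at 717 and 42.0 CPM in HFD. Endothelial markers summed to 6.57, 22.1, 41.2 and 207 CPM in myeloid-gated cells of WT, 8-week db/db, 16-week db/db and HFD. The part of endothelial RNA in the myeloid counts was not tested.

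**Figure D4:**
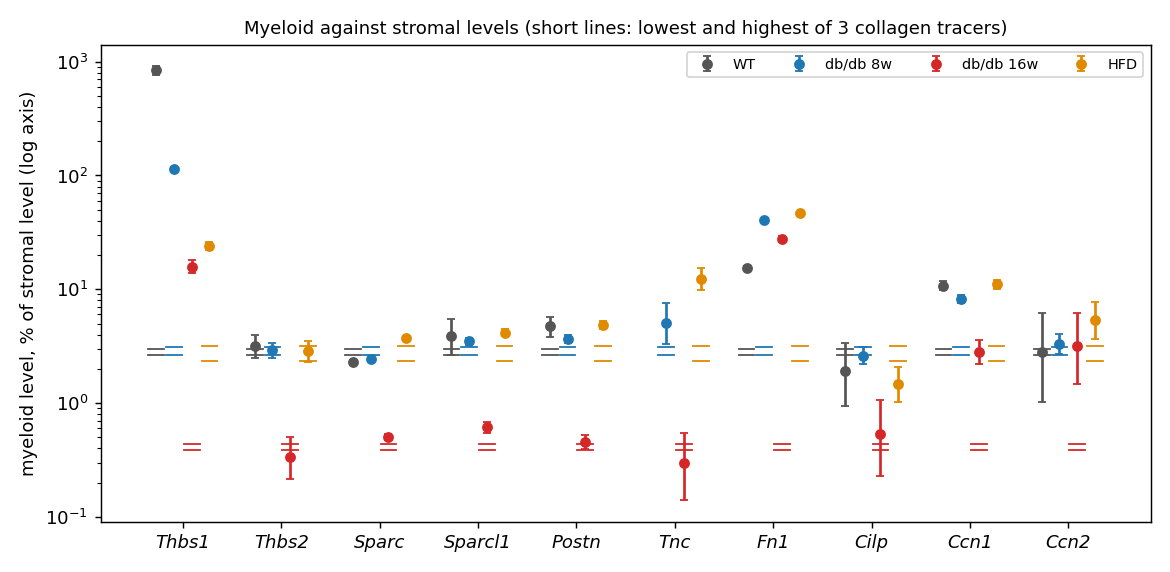
Level of each member in myeloid-gated cells as a percentage of its level in stromal-gated cells of the same library, on a log axis, with exact conditional binomial 95% intervals of counting error. Pairs of short lines give the lowest and highest percentage of Col1a1, Col1a2 and Col3a1 in that library, values under 4 UMIs are left out, and Thbs1 and Fn1 lie above the lines in all 4 libraries.

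Myeloid Fn1 was at 328 CPM in WT, 708 in 8-week db/db, 142 in 16-week db/db and 492 in HFD. Myeloid Thbs1 was at 195, 221, 19.7 and 54.8 CPM, with log2 ratios to WT of 0.19 (0.11 to 0.26), -3.30 (-3.47 to -3.14) and -1.83 (-1.95 to -1.71). Thbs1 was thus lower than in WT in myeloid cells of 16-week db/db and HFD and higher in stromal cells of both. Among the myeloid subsets, Thbs1 was at 2316 CPM in the 20 monocyte-like cells of WT (gated on Ly6c2, Plac8, Chil3 and Ccr2), 1519 in the 39 of 8-week db/db, 152 in the 20 of 16-week db/db (7 UMIs) and 493 in the 49 of HFD. In LAM-like cells, gated on the lipid-associated macrophage genes Trem2, Gpnmb, Cd9, Fabp5 and Lgals3, it was at 378, 174, 19.3 and 43.4 CPM. In PVM-like cells, gated on the perivascular macrophage genes Lyve1, Folr2, Cbr2, Cd163 and F13a1, it was at 18.3 CPM in WT and 28.5 CPM in 8-week db/db. Of 1775 Thbs1 UMIs in myeloid cells of WT, 351 lay in monocyte-like, 195 in LAM-like and 118 in PVM-like cells. In 8-week db/db, 230, 2140 and 175 of 5015 did. The rest lay in myeloid cells outside these subsets (262 cells in WT and 930 in 8-week db/db). Myeloid cells of WT were 75.6% PVM-like and 3.92% LAM-like, and those of 16-week db/db 8.1% and 74.7%. Fn1 was at 2444 CPM in monocyte-like, 759 in LAM-like and 153 in PVM-like cells of 8-week db/db, and at 820, 365 and 25.1 CPM in those of HFD, where the 31 PVM-like cells gave 3 UMIs. In WT it was at 508, 788 and 108 CPM and in 16-week db/db at 86.9, 151 and 6.75 CPM. Of these subsets, LAM-like cells thus stood highest in those libraries, where the monocyte-like cells were 20 each. The monocyte-like value of 16-week db/db rests on 4 UMIs. PVM-like cells stood lowest of these subsets in all 4 libraries. Myeloid cells in none of the subsets (262 in WT and 471 in 16-week db/db) were not ranked. Of 6 members that reached 20 CPM in myeloid cells of 8-week db/db or WT, 3 were at least 2-fold higher in 8-week db/db (5.53% of 5766 genes were) and 0 lower (4.86% were). In 16-week db/db 0 of 4 were higher (22.0% were) and 4 lower (25.2% were), and in HFD 3 of 6 were higher (13.3% were) and 1 lower (10.2% were). The 3 higher were Fn1, Sparcl1 and Postn in 8-week db/db and Sparc, Sparcl1 and Postn in HFD. Sparcl1 and Postn reached 20 CPM only in the obese library, so they entered the count through the level that made them higher. Sparc is among the members compared in all 3 libraries. In myeloid cells of WT, 8-week db/db, 16-week db/db and HFD, Sparc was at 195, 236, 59.9 and 397 CPM, Sparcl1 at 3.51, 30.3, 15.5 and 72.9 CPM and Postn at 11.3, 29.6, 9.80 and 44.0 CPM, beside a tracer sum of 741, 1035, 179 and 965 CPM. Sparcl1 was thus higher in 16-week db/db than in WT where the tracers were lower, and its stromal level was higher there too. The part of stromal RNA in those counts was not tested.

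Endothelial cells could be read in 16-week db/db (1165 cells) and HFD (1005 cells), with 81 cells in 8-week db/db and 14 in WT. Sparcl1 was at 1063 CPM in 16-week db/db, 1030 in HFD and 665 in 8-week db/db. Ccn1 was at 324, 717 and 327 CPM in the same order, above its stromal level in 16-week db/db (146 CPM) and HFD (316 CPM). Ccn2 was at 41.1 CPM (31.5 to 52.7) in endothelial cells of 16-week db/db, above the 16.0 CPM of its stromal cells, and at 19.3 CPM in HFD, below the 40.6 CPM of its stromal cells. Sparc was at 1677, 3323 and 2231 CPM. Thbs1 was at 55.0 CPM (43.8 to 68.2) in 16-week db/db, 89.6 CPM (81.4 to 98.3) in HFD and 62.0 CPM in 8-week db/db, the last on 11 UMIs. In 16-week db/db and HFD it lay above the myeloid level of the same library (19.7 and 54.8 CPM) and at 44.0% and 39.1% of the stromal level, where Col1a1, Col1a2 and Col3a1 stood at 0.193% to 0.264% and 0.893% to 0.947%. Tnc was at 13.9 CPM in 16-week db/db, 42.0 in HFD and 45.1 in 8-week db/db, the last on 8 UMIs. Cilp had 0 UMIs in the endothelial cells of 16-week db/db. Brown adipocyte markers summed to 323 CPM in endothelial-gated cells of HFD and 5.97 CPM in those of 16-week db/db.

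**Figure D5:**
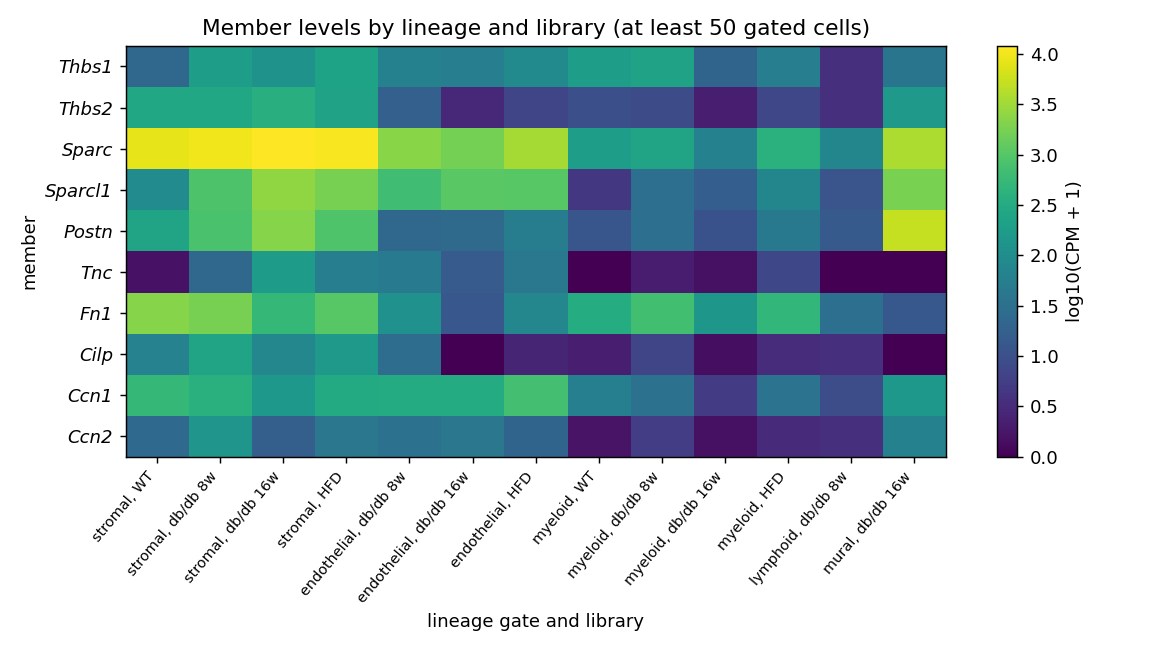
Heat map of log10(CPM + 1) for the 10 members (rows) in the 13 pairs of lineage gate and library with at least 50 cells (columns). Sparc is high in stromal, endothelial and mural cells, Thbs2 is low outside stromal and mural cells, Cilp is low outside stromal cells, Fn1 is highest in stromal and myeloid cells, and Thbs1 shows levels in stromal, myeloid and endothelial cells.

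The relatives of these genes differed in direction among themselves, as the members did. The 24 relatives were other thrombospondins, SPARC family, tenascins, CCN proteins and fibulins. In stromal cells of 8-week db/db, 4 of 15 compared were at least 2-fold higher and 0 lower, where 3.6% and 2.85% of all genes were. In 16-week db/db, 5 of 16 were higher and 4 lower, where 12.8% and 14.7% of all genes were. In HFD, 3 of 14 were higher and 3 lower, where 9.4% and 7.77% of all genes were. Follistatin-like 1 (Fstl1), the relative with most WT CPM, was at 1525, 2128, 1497 and 1617 CPM in WT, 8-week db/db, 16-week db/db and HFD. Tenascin X (Tnxb), which binds collagen in resting connective tissue, was at 1370, 1286, 680 and 962 CPM, unlike Tnc highest in WT. Fibulin 3 (Efemp1) was at 814, 422, 123 and 197 CPM, and fibulin 2 (Fbln2), an elastic fibre protein, at 382, 1271, 983 and 1112 CPM. Fbln7 and Smoc2, named after their values were seen, were at least 2-fold higher in all 3 obese libraries, Fbln7 with 7.0, 82.7, 143 and 185 CPM and Smoc2 with 101, 364, 370 and 622 CPM.

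Receptors of matricellular proteins were counted in the same stromal cells. Of 17, 13 were compared, and 3, 3 and 2 were at least 2-fold higher and 1, 2 and 1 lower in 8-week db/db, 16-week db/db and HFD, where 3.6%, 12.8% and 9.4% of all genes compared were higher and 2.85%, 14.7% and 7.77% lower. The 2 of 13 lower in 16-week db/db and the 1 of 13 in HFD lie close to those shares. Of those with most WT CPM, Lrp1, which clears thrombospondins from the matrix, was at 890, 772, 913 and 725 CPM, and Cd47 at 674, 555, 472 and 444 CPM. The integrin subunit Itgb1, the shared β chain of many matrix receptors, was at 250, 402, 727 and 455 CPM, and Itgb5 at 163, 154, 110 and 160 CPM. Cd36, Sdc1 and Itga11 were named after their values were seen. Cd36, a thrombospondin receptor that also takes up fatty acids, was at 74.1, 201, 443 and 739 CPM, and the proteoglycan Sdc1 at 1.87, 22.2, 42.2 and 44.1 CPM. The collagen receptor subunit Itga11 was at 93.8, 41.0, 18.9 and 33.0 CPM, at least 2-fold lower in all 3. Adipocytes express Cd36 as well, and brown adipocyte markers summed to 5.41, 12.3, 50.2 and 67.7 CPM in these stromal-gated cells. Endothelial markers summed to 4.95, 24.6, 61.9 and 246 CPM there, and myeloid markers to 158, 291, 88.1 and 508 CPM. The part of RNA from these other cell types in the Cd36 counts was not tested.

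Other YAP/TEAD targets were set beside Ccn1 and Ccn2. Of 10, 6 were compared, and 0 were at least 2-fold higher in any obese library, and 0, 4 and 1 lower in 8-week db/db, 16-week db/db and HFD, where 2.85%, 14.7% and 7.77% of all genes were lower. Axl was at 509, 409, 240 and 199 CPM, Amotl2 at 147, 129, 50.2 and 187 CPM, Amotl1 at 117, 138, 110 and 167 CPM, and Tead1 at 86.5, 102, 75.2 and 79.2 CPM. Of 10 immediate-early genes, which cells also induce during tissue digestion, all 10 were at least 2-fold lower in 16-week db/db than in WT, and they summed to 13055 CPM in WT, 9331 in 8-week db/db, 3897 in 16-week db/db and 12461 in HFD. Egr1 was at 2740, 1914, 750 and 3705 CPM and Jun at 1985, 1911, 729 and 2232 CPM in the same order, while Junb was at 2281, 1218, 478 and 1094 CPM and Fos at 2135, 1690, 1048 and 2215 CPM. Ccn1 was thus lowest in the library where the immediate-early genes were lowest, and the part of that response in its level was not tested. Nuclear-retained RNAs (Malat1, Neat1, Meg3) summed to 31904, 39169, 24643 and 41722 CPM in stromal cells.

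For each member the 3 genes with the most similar profile were taken, by Pearson's r of log2(CPM + 10) over the 13 pairs of lineage and library, among 6403 genes that reached 50 CPM in 1 of them. These points share libraries and gates, so r is a description. Thbs2 lay closest to Htra1 (0.99), Lama2 (0.99) and Mmp14 (0.99), and Sparc to Serpinh1, the collagen chaperone (0.99), Ppic (0.99) and Lama4 (0.99). Postn lay closest to Naalad2 (0.99), Aoc3 (0.99) and Pdgfrb (0.98), Sparcl1 to Atp9a (0.97), Igfbp7 (0.96) and Rnf144a (0.95), and Cilp to Mfap4 (0.97), Lox (0.97) and Serpina3n (0.97). Fn1 lay closest to Sh3pxd2b (0.97), Ifi204 (0.93) and Ahnak2 (0.93), and Ccn1 to Adamts1 (0.95), Heg1 (0.95) and Arhgef12 (0.95). The closest genes of Ccn2 were Plod2 (0.90), Mosmo (0.88) and Klf9 (0.88), those of Tnc Meox1 (0.85), Nrep (0.83) and Ermp1 (0.82), and those of Thbs1 Pros1 (0.80), Emp1 (0.80) and Ifitm2 (0.79). Among the members, the closest pair was Thbs2 and Postn (0.90) and the least alike were Sparcl1 and Fn1 (-0.09).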

How the data were processed

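Single-cell RNA was sequenced from the stromal vascular cells of BAT in 4 libraries, 1 per group (10x 3′ kit, sorted cells, per the study's methods). The deposited files hold UMI counts per gene and barcode as filtered matrices. The submitters' processing notes name Cell Ranger 7.1.0 and mm10, and the file headers name Cell Ranger 6.0.0. The authors went on to subsample and integrate the cells, and those steps were not used here.

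Barcodes passed the study's limits on genes, UMIs and mitochondrial share. A cell joined a lineage with at least 3 UMIs from at least 2 genes of a marker list and over 70% of the UMIs of all 5 lists, and a subset with at least 2 UMIs of its list and over 70% of those of that lineage's subset lists. Ratios needed at least 50 cells. No doublet caller was run. CPM carry exact Poisson intervals, ratios exact conditional binomial intervals, and shares, after thinning each cell at random to 1000 UMIs, exact binomial (Clopper-Pearson) intervals, all at 95%. UMI totals of kept cells were 26558173 to 53420105 per library. A share of 0 was given a limit of 3 counts, which lies below the upper end of the exact 95% interval. The scripts (Python 3.11.15, numpy 2.4.6, scipy 1.17.1, pandas 2.3.3) were tested on simulated data.

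Members, gene lists, gates and thresholds were chosen with earlier results of these data known. All members are named in every library; of related lists the 4 genes with the highest WT stromal CPM are named, and for each member the 3 genes of most similar profile, with members and gate genes left out. Alternatives changed the quality limits, the gate, the total, the thinning, the weighting of cells and the fold threshold.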

Additional observations from a re-analysis of the deposited data

Results flagged for a closer look

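Members past 2-fold against WT in opposite directions in 2 lineages of the same library, or in 2 libraries within the same subset, are given here, and neither difference was tested. Thbs1 was higher than in WT in stromal cells and lower in myeloid cells of the same library. In 16-week db/db its log2 ratio was 2.43 in stromal and -3.30 in myeloid cells, and in HFD it was 3.30 in stromal and -1.83 in myeloid cells. Within the Col15a1 stromal subset, Ccn2 had a log2 ratio to WT of 1.33 in 8-week db/db and -1.34 in 16-week db/db, where the latter rests on 63 UMIs.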

How the results depend on the processing

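Alternatives were set 1 at a time, though thinning also left out cells under 1000 UMIs, and the gate that allowed no UMI of the other 4 lists also dropped the minimum of stromal marker UMIs. Over the 9 alternatives that give ratios, all 270 member ratios to WT in stromal cells kept their sign. The number of members at least 2-fold higher stayed within 1.5 times its value in every library and alternative, except in the Pi16 subset of HFD, where it was 3 in place of 5. The 1 member lower in HFD was Fn1, at a log2 ratio of -1.02, and the number became 0 with no mitochondrial limit, with over 90% of lineage marker UMIs, with each cell thinned to 1000 UMIs, with the mean of per-cell shares, with a 3-fold threshold and in the Col15a1 subset. The gate with no UMI of the other 4 lists left 69 stromal cells in HFD, where Fn1 stood at -0.57 and Ccn1 at -1.12 was the 1 member lower, and under it Cilp in 16-week db/db was at 1.40 in place of 0.28; the cause was not tested. The Col15a1 and Pi16 subsets were added as alternatives after seeing the data: 35 of their 48 ratios kept the sign found over all stromal cells, and 3 past 2-fold turned, all in HFD, which were Cilp in the Col15a1 subset (-0.33) and, in the Pi16 subset, Postn (-0.77) and Fn1 (0.62). The 1 member lower in the Pi16 subset of HFD was Thbs2 (-1.04). With 1 library per group, no spread between animals can be had. No paired analysis was possible, since each group has only 1 library.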

Other observations

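A further stromal subset, gated on the activation genes Has1, Ptx3 and Tnfaip6, held 69 cells in WT and 29 cells in 8-week db/db, under the 50 cells needed for a ratio in the latter. In it Thbs1 was at 39.3 CPM (26.5 to 56.1) in WT and 609 CPM (488 to 750) in 8-week db/db. Cilp, the TGF-β antagonist, was at 90.3 CPM (70.3 to 114) and 533 CPM (420 to 666), and Ccn2 at 11.8 CPM on 9 UMIs and 118 CPM on 17 UMIs. Fn1 was at 1733 CPM in WT and 1280 CPM in 8-week db/db. Among the 24 mural-gated cells of HFD, Postn was at 1486 CPM and Sparc at 3982 CPM. The 123 lymphoid-gated cells of 8-week db/db held Sparc at 72.6 CPM, Fn1 at 29.6 CPM and every other member at 13.4 CPM or less, beside Col3a1 at 226 CPM.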
